A study of Mus musculus with 19 samples.

Results

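The MHC class I heavy chain genes H2-K1, H2-D1 (listed together with H2-L), H2-Q2, H2-Q4 and Gm8909 held 34 of the 656 distinct variants in a deposited table of nonsynonymous variants called from RNA. They were chosen by gene name from that table and selected on being listed in it, with their read shares and depths known. They fill 71 of its 1426 rows, each row being 1 variant in 1 library. The comparison set was the 1216 rows, 557 variants and 493 genes outside chromosomes 17 and Y. The RNA came from squamous cell carcinoma of the skin of C57BL/6 mice, grown as allografts after intradermal injection of 10000 cells, with 100000 sorted cells per library. Proliferative cells were high for CD71, the transferrin receptor, and low for H2BGFP, a histone label that dividing cells dilute. Quiescent cells had low CD71 and retained the H2BGFP label, and the double negative population had little of either. Each population had 1 library from each of 2 tumours, SCC1 and SCC2. Variants were listed for proliferative and quiescent cells of each tumour, and the expression table adds the double negative cells. Further deposited tables give merged ATAC peaks, copy number from the input DNA of SCC1 and SCC2, and Smad2/3 sites in SCC1 cells treated with TGFβ1. ATAC libraries came from these populations and double positive cells of SCC1 and SCC2 and from a Tgfbr2 knockout tumour, SCC3, and the merged list does not say which of them gave a peak. The sources used here do not give the driver or cell of origin of the tumours, nor the promoter of the label.

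Class I heavy chains pair with beta-2-microglobulin and show peptides from inside the cell to CD8 T cells. Exons 2 and 3 encode the domains that form the peptide groove, exon 4 the domain nearest the membrane that pairs with beta-2-microglobulin and binds CD8, and exon 5 the stretch that crosses the membrane. H2-K1 and H2-D1 are classical genes expressed in most cells, whereas the Q region genes H2-Q2 and H2-Q4 are nonclassical. The genes arose by duplication and are close in sequence, so short reads of 1 gene can be placed on another, and the values given here for each gene are uncertain to that extent. Interferon gamma raises class I in many cell types, keratinocytes among them, through Nlrc5 and response elements in the promoters. The squamous label was checked at variant sites of basal keratins. The listed site of Krt14 was read 722 times in the SCC1 proliferative library, 737 in the SCC1 quiescent, 277 in the SCC2 proliferative and 14 in the SCC2 quiescent library. That of Krt5 was read 124, 111 and 45 times in the first 3 of these, and the SCC2 quiescent library does not list it. That of Krt15 was read 57, 164, 610 and 163 times. Keratin RNA was thus read in all 4 libraries. Krt14 and Krt5 are on the list of squamous markers used here, and Krt15 is not. In the SCC2 quiescent library the listed keratins gave only the 14 reads of Krt14. The check there rests mainly on Krt15 and is weak.

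All 5 genes lie on chromosome 17 of GRCm38.p6, the assembly named mm10. H2-K1 spans chr17:33996012-34000619 on the minus strand. H2-D1 spans chr17:35263094-35267497, H2-Q2 chr17:35342307-35346764 and H2-Q4 chr17:35379617-35384674, all on the plus strand. Gm8909 spans chr17:36143812-36168602 on the minus strand. All 34 variants fell inside the gene named for them. H2-L has no entry in the reference used, and its name appears in the variant table as a second transcript for the H2-D1 sites. The authors' deposited table of copy number placed the 5 genes in a gained region of 3 copies in both tumours, from 15.5 to 43.2 Mb in SCC1 and from 31.5 to 36.2 Mb in SCC2.

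A merged ATAC peak covered the start of H2-K1 (chr17:34000101-34000650), H2-D1 (chr17:35262651-35263300) and H2-Q4 (chr17:35379251-35379750). No listed peak lay within 10 kb of H2-Q2 or Gm8909. The peaks nearest to their RefSeq starts were 36944 and 46637 bp from those starts. No Smad2/3 site lay within 10 kb of any of the 5 genes. The promoters are shown because the same division of the genes appears in their letters. Each line holds the 150 bases from position -190 to -41 of the RefSeq start (for H2-K1 the first listed start), read along the gene, from RefSeq on GRCm38.p6. Capitals mark a kappa B element (GGGGATTCCCC or GGGGATTTCCC), the core of an interferon element (GTTTCACTT) and CCAAT boxes on either strand (CCAAT or ATTGG).
H2-K1, chr17:34000388-34000537, minus strand: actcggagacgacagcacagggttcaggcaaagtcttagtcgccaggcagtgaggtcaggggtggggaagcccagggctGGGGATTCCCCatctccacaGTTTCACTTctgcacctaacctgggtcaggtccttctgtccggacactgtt
H2-D1, chr17:35262904-35263053, plus strand: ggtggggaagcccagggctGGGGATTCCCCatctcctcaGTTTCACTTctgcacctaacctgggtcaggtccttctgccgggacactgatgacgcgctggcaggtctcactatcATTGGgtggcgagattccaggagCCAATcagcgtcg
H2-Q4, chr17:35379427-35379576, plus strand: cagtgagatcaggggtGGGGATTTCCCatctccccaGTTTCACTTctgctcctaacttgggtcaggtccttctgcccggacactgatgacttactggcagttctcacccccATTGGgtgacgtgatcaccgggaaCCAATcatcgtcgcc
H2-Q2, chr17:35342117-35342266, plus strand: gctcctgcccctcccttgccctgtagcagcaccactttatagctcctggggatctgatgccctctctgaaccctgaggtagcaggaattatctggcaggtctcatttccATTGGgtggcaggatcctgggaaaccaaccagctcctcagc
Gm8909, chr17:36168578-36168727, minus strand: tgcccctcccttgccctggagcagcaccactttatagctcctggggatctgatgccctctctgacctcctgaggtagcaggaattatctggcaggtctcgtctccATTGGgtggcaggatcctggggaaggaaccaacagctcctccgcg
H2-K1, H2-D1 and H2-Q4 each had a kappa B element followed by the interferon core. GGGGATTCCCC occurred in 0.0304% and GTTTCACTT in 0.399% of 32851 RefSeq promoter windows of 300 bases, searched on both strands. GGGGATTTCCC, the letters in H2-Q4, occurred in 0.0244%. H2-Q2 and Gm8909 held none of these 3 motifs in their windows. CCAAT, found in 37.4% of windows, and TATAAAGTCCA, found in 0.0365%, were present in the windows of all 5 genes, partly outside the printed stretch. GGGGATTCCCC and GTTTCACTT were copied from the H2-K1 window, GGGGATTTCCC from that of H2-Q4 and TATAAAGTCCA from that of H2-D1. Their presence in the source gene was thus fixed in advance, and the percentages include these genes' windows. These matches describe letters and were not tested as sites.

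**Figure D1:**
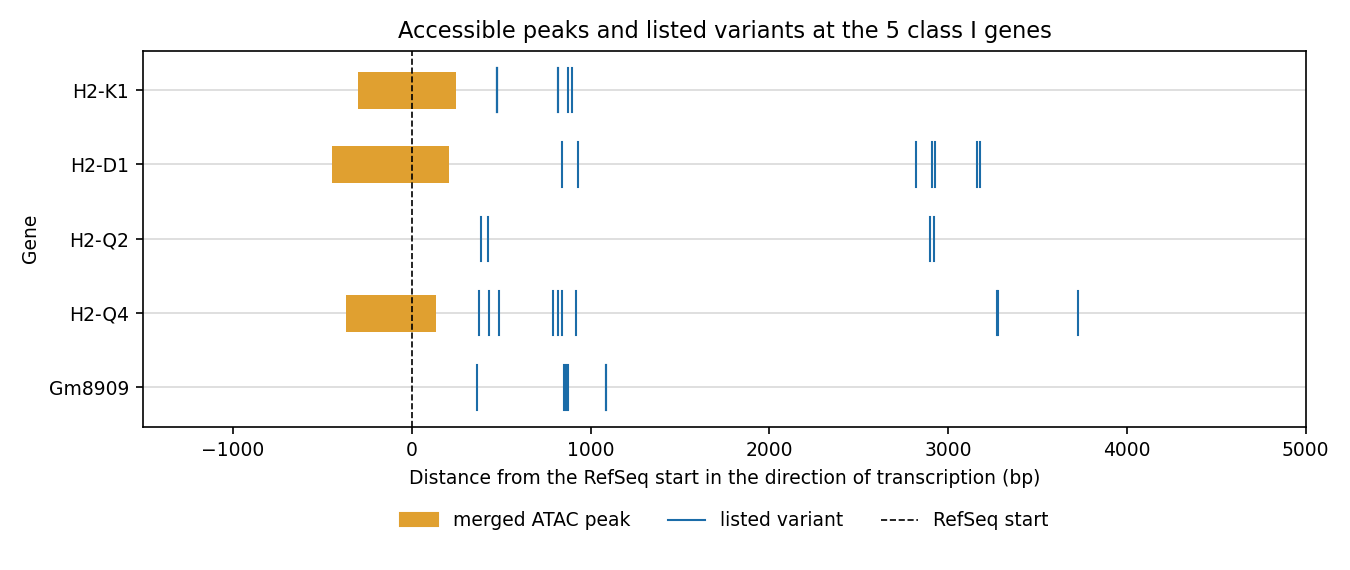
Merged ATAC peaks (orange blocks) and listed variants (blue lines) at the 5 class I genes, by distance in bp from the RefSeq start in the direction of transcription. A peak covers the start of H2-K1, H2-D1 and H2-Q4, and none is drawn at H2-Q2 or Gm8909. A further H2-D1 peak, at -4143 to -3644 bp, lies outside the plotted range.

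The class I variants divided into those carried by nearly all reads at their site and those carried by fewer. Of the 34, 18 were at 80% or more in every library that lists them and 14 never reached 80%. Over the 71 rows the share of reads with the alternative base ran from 11 to 100%, with a median of 93% and quartiles of 62.5 and 96%. Outside chromosomes 17 and Y the median was 44%, with quartiles of 29 and 61%. A share of 90% or more was listed in 42 of 71 class I rows (59.2%) and in 99 of 1216 rows outside (8.14%). Depth was alike, with a median of 37 reads per class I row and 34.5 per row outside. Because the members were taken from this table with its values known, these shares are a description and were not tested. The table lists no row under 10 reads or under a share of 11%, so a variant that is not listed in a library was not necessarily absent there. Class I values at these limits were H2-K1 E67K at 11%, and H2-Q2 Q53E and 3 Gm8909 variants with 10 reads.

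The 4 libraries gave much the same class I median. It was 92% in the SCC1 proliferative library (27 rows), 94% in the SCC1 quiescent (20 rows), 93.5% in the SCC2 proliferative (16 rows) and 91.5% in the SCC2 quiescent library (8 rows). Medians outside chromosomes 17 and Y were 44, 44, 46 and 38% in the same order. The SCC2 quiescent library stands apart in depth: it listed 95 rows in all, against 411 to 498 in the other libraries, and its rows outside had a median of 17 reads. Without it the class I median was 93%. A variant listed in several libraries counts several times in these medians, and over the 34 variants the median of the mean share was 80.9%, against 41.3% outside.

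**Figure D2:**
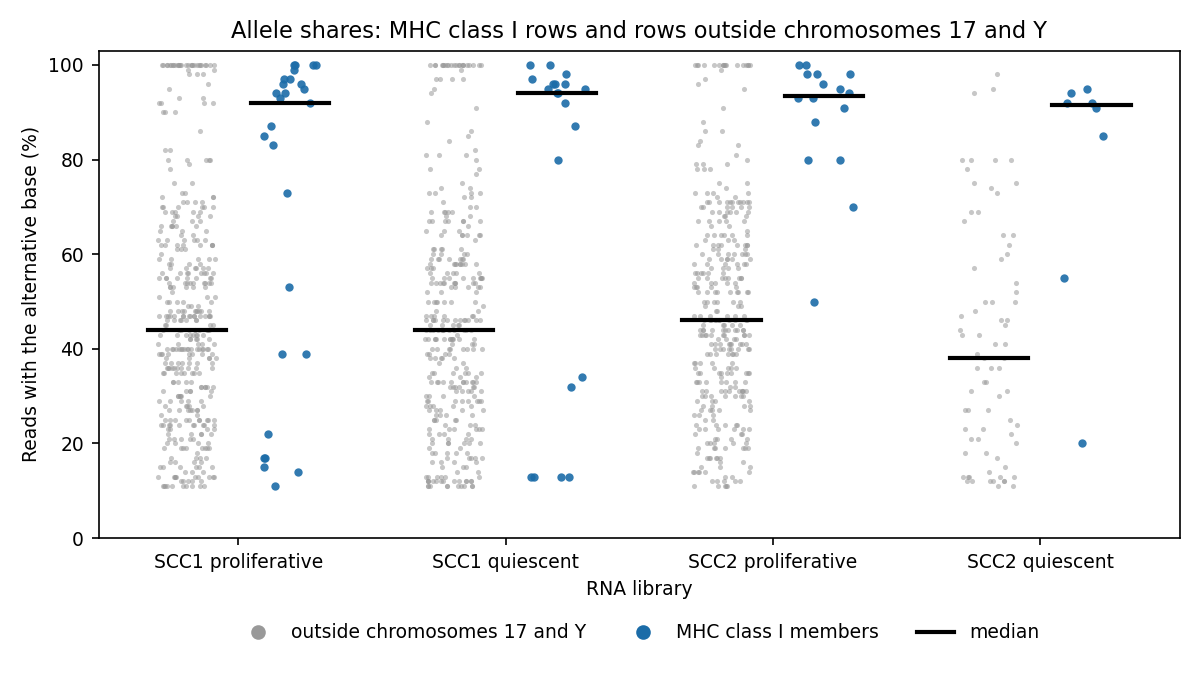
Share of reads with the alternative base (%) in each RNA library, for rows outside chromosomes 17 and Y (grey points) and for the class I rows (blue points), with medians as black bars. The class I medians lie between 91.5 and 94%, the others between 38 and 46%, and some class I rows lie below 20% in both SCC1 libraries.

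Variants were dense in these genes. The 5 entries held 4 to 10 variants each, with a median of 7, whereas genes outside chromosomes 17 and Y had a median of 1 and a maximum of 5. Of the gaps between neighbouring class I variants of 1 gene, 14 of 29 were 50 bases or shorter. The groove exons held most of them, with 9 variants in exon 2 and 15 in exon 3, and exons 4 and 5 held 5 each. Missense changes made up 31 of the 34, and the remaining 3 were stop gains (8.82%, against 3.23% outside). An A:T to T:A change, the type of 217 of 492 single-base variants outside (44.1%), was found once among the 34 (2.94%). No test was made of these shares, since variants within a gene share reads and origin.

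H2-D1, listed with H2-L, had 7 variants in 21 rows and a median share of 94%. The deepest was V327M in the membrane exon, at chr17:35266270. It was carried by 96% of 367 reads in the SCC1 proliferative library (95% exact binomial interval 93.3 to 97.7%), 94% of 229 in the SCC1 quiescent, 98% of 263 in the SCC2 proliferative and 94% of 96 in the SCC2 quiescent library (86.9 to 97.7%). I323L, 12 bases before it, was at 95% of 224, 94% of 136, 98% of 152 and 91% of 58 reads in the same order. At both sites the libraries lay within 7 percentage points of each other, and the SCC2 proliferative library was the highest. N280K, in exon 4, was at 93% of 29, 96% of 22, 94% of 17 and 85% of 13 reads. The stop gain Y286X, 18 bases further, was at 85% of 33, 92% of 24, 95% of 19 and 55% of 11 reads, the last with an interval of 23.4 to 83.3%. The SCC2 quiescent library was the lowest at N280K and Y286X, where its depth was lowest too. I148L in the groove exon 3 was at 96% of 69, 48 and 49 reads in the SCC1 proliferative, SCC1 quiescent and SCC2 proliferative libraries. A176D, also in exon 3, was listed in the SCC1 proliferative library at 100% of 53 reads. D251E, which falls outside the rule for named variants, was listed there at 83% of 12 reads. Residues are numbered here on the first listed transcript, and on the H2-L transcript I148L is I140L.

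H2-Q4 had the most variants of any gene in the whole table, 10 in 23 rows. Their shares ran from 14 to 98%, with P99R and A199G between the high and the low ones. The groove variants G118S, F165S and I173L were listed in all 4 libraries. F165S, at chr17:35380436, was at 92% of 242, 96% of 159, 93% of 143 and 92% of 37 reads in the SCC1 proliferative, SCC1 quiescent, SCC2 proliferative and SCC2 quiescent libraries. I173L, 23 bases further, was at 94% of 213, 95% of 145, 93% of 128 and 92% of 25 reads. G118S was at 97% of 157, 98% of 81, 91% of 88 and 95% of 20 reads. These 3 sites stayed above 90% in every library that lists them. P99R was at 73% of 30 reads in the SCC1 and 70% of 37 in the SCC2 proliferative library. A199G, at chr17:35380538 in exon 3, was at 87% of 38 and 87% of 23 reads in the proliferative and quiescent libraries of SCC1 (intervals 71.9 to 95.6% and 66.4 to 97.2%) and at 50% of 34 reads in the SCC2 proliferative library (32.4 to 67.6%). Its SCC2 interval lies below that of the SCC1 proliferative library. The stop gain W351X was listed in SCC1 alone, at 14% of 44 reads in proliferative and 32% of 19 in quiescent cells, and its intervals overlap. E81Q, G156W, S244P and D245E, outside the rule for named variants, were each listed in the SCC1 proliferative library alone, at 15 to 22% of 18 to 41 reads.

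H2-Q2 had 4 variants in 10 rows, all at 80% or more. E67K, at chr17:35342734 in exon 2, was at 99% of 70, 95% of 41 and 98% of 57 reads in the SCC1 proliferative, SCC1 quiescent and SCC2 proliferative libraries. L311P, in the membrane exon, was at 100% of 47, 97% of 30 and 100% of 17 reads. Q53E was at 94% of 17, 80% of 10 and 88% of 17 reads, and I320L was listed in the SCC1 proliferative library at 97% of 30. The SCC2 quiescent library lists no H2-Q2 variant.

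H2-K1 differed from the other genes in its levels. Its median share was 13% over 9 rows, and 6 of the rows came from quiescent libraries. Quiescent libraries gave 28 of all 71 class I rows. Of the 1216 rows outside chromosomes 17 and Y, 358 came from the SCC1 and 76 from the SCC2 quiescent library. No test was made of this. I145L, at chr17:33999448 in exon 3, was at 34% of 140 reads in the SCC1 quiescent (26.5 to 42.8%) and 20% of 76 in the SCC2 quiescent library (11.5 to 30.5%), and neither proliferative library lists it. Y137S was listed in the SCC1 quiescent library at 13% of 105 reads. E67K was at 11% of 113 reads in the SCC1 proliferative and 13% of 45 in the SCC1 quiescent library. Next to it, Y66N and the stop gain Y66X were at 13% of 47 and 46 reads in the SCC1 quiescent library. Sites this close can lie on the same reads, so the rows of E67K, Y66N and Y66X there are not independent. The values of E67K, Y66N, Y66X and Y137S lie near the table's limit of 11%, whereas both intervals of I145L lie above it. V118L and V118G change neighbouring bases of 1 codon, and both were listed in the SCC2 proliferative library at 80% of 15 reads.

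Gm8909, a class I-like gene model, had 6 variants in 8 rows, at 10 to 20 reads each. K201N and E202A, 2 bases apart, were at 100% of 20 reads in the SCC1 proliferative library and 100% of 10 in the SCC1 quiescent. Y124S and G132W were at 39% of 18 reads and L128V, between them, at 53% of 15 in the SCC1 proliferative library, all in exon 3. E34D was listed in the SCC2 proliferative library at 100% of 10 reads (69.2 to 100%). No Gm8909 variant was listed in both tumours.

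**Figure D3:**
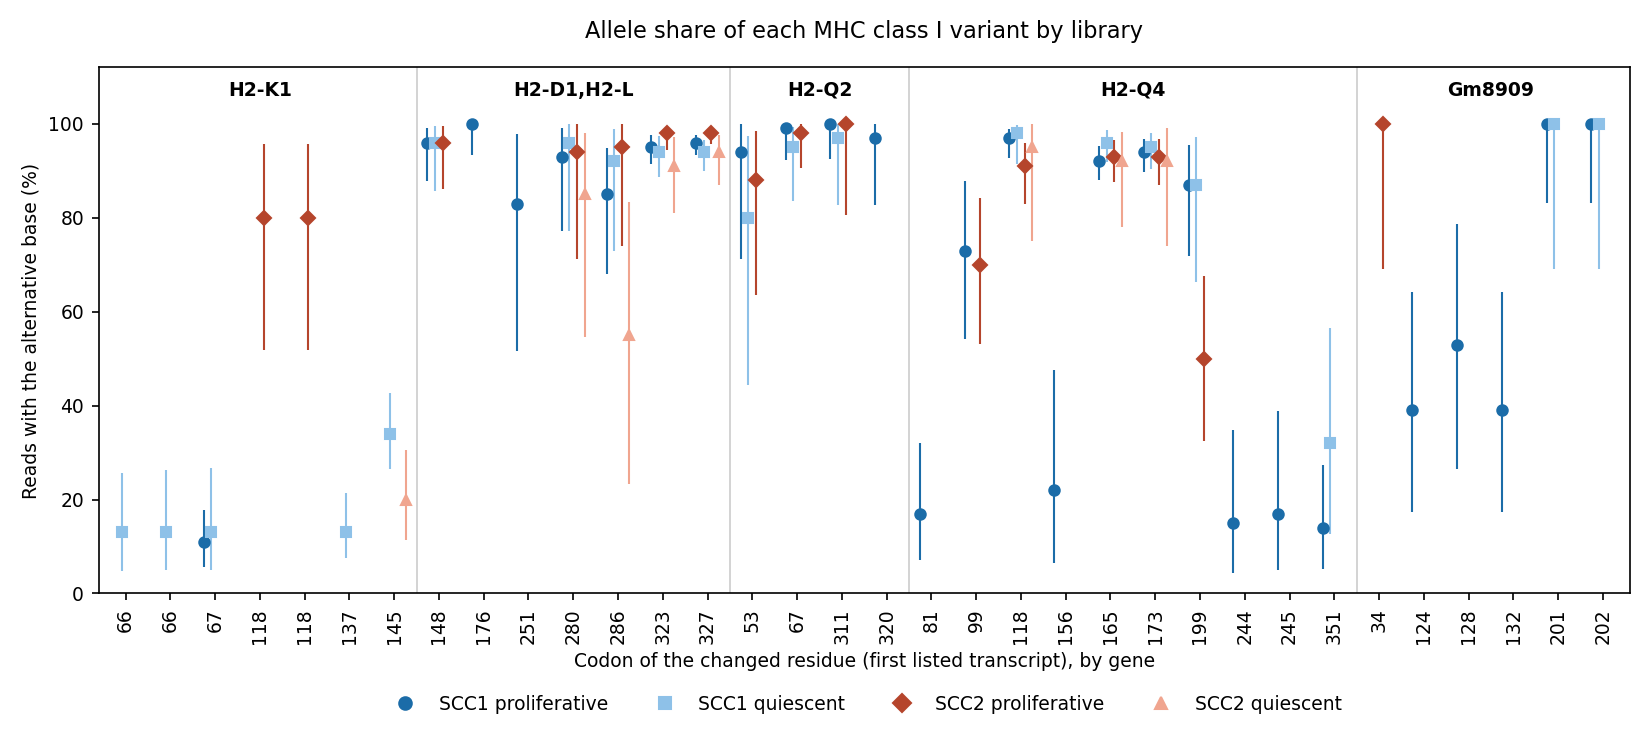
Share of reads with the alternative base (%) for each of the 34 class I variants, by codon and gene, with 95% exact binomial intervals as bars and 1 symbol per RNA library. Most H2-D1 and all H2-Q2 variants lie at 80% or more in each listed library, H2-Q4 and Gm8909 hold high and lower variants, and most H2-K1 variants lie between 11 and 34%.

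Several residue changes recurred between genes. Isoleucine to leucine was listed 5 times in 4 genes, as I148L and I323L in H2-D1, I145L in H2-K1, I320L in H2-Q2 and I173L in H2-Q4. The same coding change, G199A, gave E67K in H2-K1 at 11 to 13% and in H2-Q2 at 95 to 99%. The pairs Y137S and I145L in H2-K1 and F165S and I173L in H2-Q4 were each 23 coding bases apart. Aspartate to glutamate, glycine to tryptophan, tyrosine to serine and tyrosine to stop were each listed in 2 genes.

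Of the class I variants, 14 of 34 were listed in both tumours (41.2%, 95% exact binomial interval 24.6 to 59.3%), against 299 of 557 outside chromosomes 17 and Y (53.7%, 49.4 to 57.9%). The intervals overlap, but they count variants as independent. The 34 class I variants come from 5 genes, and variants within a gene share reads and origin. Their interval is therefore likely too narrow, and the difference between the shares was not tested. In the quiescent libraries alone the order turned, with 40% of class I variants and 15.1% of those outside listed in both tumours. Listing needs 10 reads, and rows of the SCC2 quiescent library had a median of 31 reads for class I and 17 outside. The part of depth in this order was not tested. Listing in all 4 libraries was found for 7 class I variants (20.6%) and 52 outside (9.34%). Of the 14, these 7 variants were listed in all 4 libraries, 5 in both SCC1 libraries and the SCC2 proliferative library, 1 in both proliferative and 1 in both quiescent libraries. Of those in 1 tumour, 10 were listed in the SCC1 proliferative library alone, 4 in both SCC1 libraries, 3 in the SCC1 quiescent and 3 in the SCC2 proliferative library. Of the genes, H2-D1 and H2-Q4 had 5 variants each in both tumours, H2-Q2 had 3, H2-K1 1 and Gm8909 0. Among the 14 variants in both tumours, H2-K1 I145L and H2-Q4 P99R are those that no library listed at 80% or more.

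Allele shares were next compared between libraries at every site listed in both, with a two-sided Fisher's exact test on reads and Benjamini-Hochberg adjustment over all such sites. With 1 library per population and tumour, the test compares 2 libraries and not the conditions. Sites listed in only 1 of the 2 libraries could not be tested, among them H2-K1 I145L between quiescent and proliferative cells. Between quiescent and proliferative cells of SCC1, 1.12% of 356 sites passed an adjusted p of 0.05, and 0 of 16 class I sites did, with 0 at an unadjusted p under 0.05. The class I difference was 10 percentage points or less at 14 of 16 sites, with a median of 2 points, against 68.6% of 303 sites and 7 points outside. Shares near 100% leave less room to differ, and among sites at 80% or more in both libraries the median was 1.5 points over 14 class I sites and 1 point over 27 sites outside. The 2 wider ones were H2-Q4 W351X, 18 points higher in quiescent cells, and H2-Q2 Q53E, 14 points lower, both with under 20 reads in the quiescent library. In SCC2, 5.71% of 70 sites passed and 0 of 7 class I sites did, with 2 at an unadjusted p under 0.05. Those 2 were in H2-D1. Y286X was at 55% of 11 reads in quiescent and 95% of 19 in proliferative cells (Fisher's exact test, adjusted p = 0.179), and I323L was at 91% of 58 and 98% of 152 reads (Fisher's exact test, adjusted p = 0.335). With the tumour as a block, an exact test at the 65 sites listed in all 4 libraries passed 4.62% of them and 0 of 7 class I sites, with 0 of these at an unadjusted p under 0.05.

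Between the proliferative libraries of SCC1 and SCC2, 19.7% of 325 sites passed, and 1 of 13 class I sites did. That site was H2-Q4 A199G, 37 points higher in SCC1 (Fisher's exact test, adjusted p = 0.00736). The SCC1 quiescent library gave the same 87%, and the SCC2 quiescent library does not list the site. With alternative and total reads both divided by 2, standing for PCR copies, its adjusted p was 0.244. The other 12 class I sites differed by 10 points or less. Over the 13 sites the median difference was 2 points, against 12 points over 285 sites outside, where 44.9% lay within 10 points. Among sites at 80% or more in both libraries, the median was 1 point over 11 class I sites and 0 points over 11 sites outside, with 11 and 8 of them within 10 points. Between the quiescent libraries of SCC1 and SCC2, 16.7% of 72 sites passed and 0 of 8 class I sites did, with 2 at an unadjusted p under 0.05. Those 2 were H2-D1 Y286X, at 92% of 24 and 55% of 11 reads (Fisher's exact test, adjusted p = 0.0875), and H2-K1 I145L, at 34% of 140 and 20% of 76 (Fisher's exact test, adjusted p = 0.103).

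H2-K1 and H2-D1 are the members with a row in the expression table, which gives log2 ratios between sorted populations of a tumour. H2-L, H2-Q2, H2-Q4 and Gm8909 have none. The authors named the table as one of differentially expressed genes, so its genes were already selected for differing between populations. Shares of the table given here are therefore not shares of all genes. A gene without a row was not necessarily unmeasured. For quiescent over proliferative cells, the authors' deposited table puts H2-D1 at -0.25 in SCC1 and at 1.83 in SCC2. H2-K1 is put by the authors' deposited table at -0.73 in SCC1 and at 1.62 in SCC2. Both genes were thus lower in quiescent cells of SCC1 and higher in those of SCC2. The SCC1 value of H2-D1 is small, and the table's median in SCC1 was -0.61. H2-D1 lay above that median and H2-K1 below it. Opposite signs between the tumours were found in 11.6% of the 1609 genes of the table, and a log2 ratio of 1 or more in SCC2 in 29.8%. There is 1 library pair per tumour, so the difference between tumours was not tested. In bulk RNA, fewer cells of a type and less RNA per cell cannot be told apart.

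Double negative cells of SCC2 also had more class I RNA than proliferative ones. For double negative over proliferative cells, the authors' deposited table puts H2-D1 at 0.12 (SCC1) and 1.36 (SCC2). The authors' deposited table puts H2-K1 at -0.65 (SCC1) and 1.44 (SCC2). The SCC2 ratio was 1 or more in 25.6% of the table's genes, and signs were opposite in 6.03%. For quiescent over double negative cells, the authors' deposited table puts H2-D1 at -0.41 (SCC1) and 0.44 (SCC2) and H2-K1 at -0.12 (SCC1) and 0.15 (SCC2). Opposite signs in this comparison were found in 53.4% of the table's genes. The 3 ratios of a tumour share their libraries and are not independent.

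The antigen presentation list, as used here, held 47 genes, and 34 of them had no row in the expression table. The rows described next are thus the selected part of the list. Besides H2-K1 and H2-D1 it had 9 rows in the table, of which H2-Q7,H2-Q9 and H2-T22,H2-T9 name a pair of genes each. Their median log2 ratio of quiescent over proliferative cells, taken from the authors' deposited table, was -0.72 for SCC1 (whole table -0.61) and 1.49 for SCC2 (whole table -0.49). In SCC2 the ratio was 1 or more for 7 of 9, against 29.8% of the whole table. Opposite signs were found for 7 of 9, all higher in SCC2 and lower in SCC1, against 11.6% of the whole table in either order. Nlrc5, the transactivator of class I genes, stands at -0.72 (SCC1) and 2.55 (SCC2) in the authors' deposited table. Tap1, a subunit of the peptide transporter, stands there (the authors' deposited table) at -0.42 (SCC1) and 1.47 (SCC2). Both had the signs of H2-K1 and H2-D1 in both tumours.

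The immunoproteasome subunits, which cut proteins into peptides for class I, had the same signs. The authors' deposited table gives, for SCC1 and then SCC2, -1.65 and 1.70 for Psmb8, -1.57 and 1.49 for Psmb9, and -0.45 and 1.37 for Psmb10. Of the other class I heavy chains, the authors' deposited table gives H2-Q7,H2-Q9 -0.18 and 1.79, H2-Q10 -0.84 and 0.39, and H2-T23 0.32 and 1.75 in the same order. H2-T23 was thus higher in quiescent cells of both tumours. In the authors' deposited table H2-T22,H2-T9 has -1.37 for SCC1 and is listed at the lower limit of the ratios for SCC2. For double negative over proliferative cells the median of the 9, from the authors' deposited table, was -0.27 (SCC1) and 1.12 (SCC2), with 7 of 9 at 1 or more in SCC2.

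**Figure D4:**
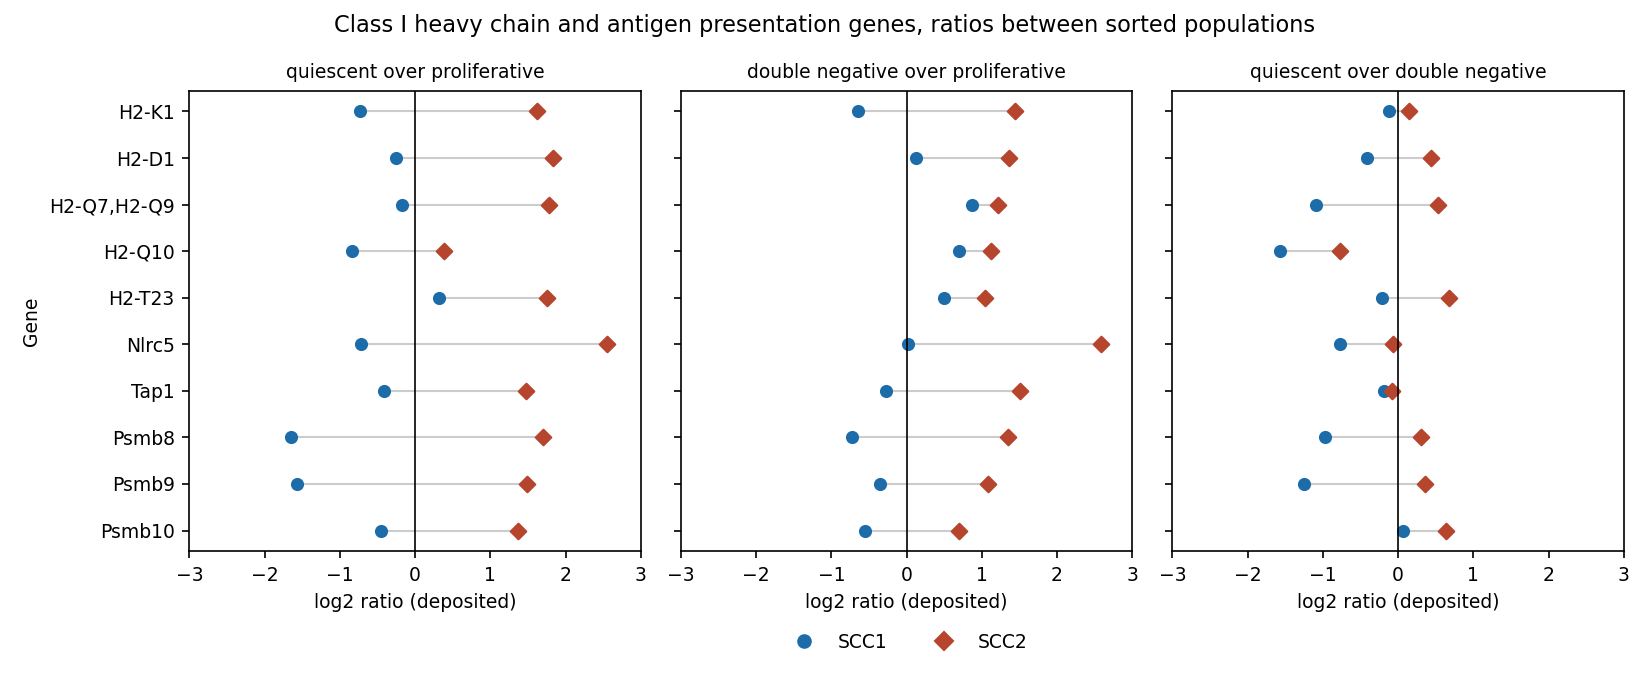
Deposited log2 ratios of H2-K1, H2-D1 and 8 genes of the antigen presentation list in SCC1 (blue circles) and SCC2 (red diamonds), for each pair of sorted populations, with a black line at 0. In the left panel H2-K1 and H2-D1 lie below 0 in SCC1 and above 1.5 in SCC2. H2-T22,H2-T9, at the limit in SCC2, is not drawn.

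Read depth at the variant sites gave a second view of the same libraries. It covers H2-Q4, which has no expression row. At sites outside chromosomes 17 and Y listed in both libraries, the median quiescent to proliferative depth ratio was 0.818 in SCC1 (303 sites) and 0.167 in SCC2 (57 sites). Relative to that, the H2-D1 sites stood at a log2 value of -0.23 in SCC1 (5 sites) and 1.53 in SCC2 (4 sites). The H2-Q4 sites stood at -0.43 (5 sites) and 0.45 (3 sites). The raw H2-Q4 ratios, 0.432 to 0.681 in SCC1 and 0.195 to 0.259 in SCC2, lay inside the range of the sites outside, which was 0.137 to 3.5 in SCC1 and 0.0476 to 0.405 in SCC2. Those of H2-D1 were 0.607 to 0.759 in SCC1 and 0.365 to 0.765 in SCC2, reaching past that range in SCC2. In SCC1 the relative log2 depth was -0.48 for H2-Q2 (3 sites), -0.71 for Gm8909 (2 sites) and -1.04 for H2-K1 (1 site). Sites of a gene share reads, and a site must reach 10 reads in both libraries to be counted, so these values have no error and no test.

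In quiescent over proliferative cells of SCC2, the markers of other cells with a row had positive ratios, as H2-K1 and H2-D1 had. In the other comparisons of SCC2, given below, the markers and the class I genes did not all move together. All 4 antigen presenting markers, the class II genes H2-Aa, H2-Ab1 and H2-Eb1 and their invariant chain Cd74, had quiescent over proliferative log2 ratios of 2.49 to 3.27 (SCC2) and -0.90 to 1.65 (SCC1) in the authors' deposited table. The myeloid markers with a row, 2 of 5, had 2.87 to 4.24 (SCC2) and -1.57 to -0.30 (SCC1) in the authors' deposited table. The fibroblast markers, 3 of 4, had 2.54 to 4.63 (SCC2) and 0.05 to 2.75 (SCC1) in the authors' deposited table. The endothelial markers, 2 of 3, had 0.88 to 2.75 (SCC2) and -0.83 to -0.61 (SCC1) in the authors' deposited table. Epcam, the squamous epithelium marker with a row of 5, had -0.40 (SCC2) and -3.21 (SCC1) in the authors' deposited table. None of the 5 T and NK cell markers had a row. The part of these cells in the class I ratios was not tested. For quiescent over double negative cells of SCC2, the authors' deposited table gives antigen presenting markers 0.51 to 2.29 and myeloid markers 2.91 to 3.79. In the authors' deposited table the fibroblast markers had -0.13 to 3.83 there and the endothelial markers -1.81 to -0.79. H2-D1 and H2-K1 stood at 0.44 and 0.15 in that comparison (the authors' deposited table). In double negative over proliferative cells of SCC2, the antigen presenting markers had 0.95 to 1.95, the fibroblast markers 0.74 to 2.65, the endothelial markers 1.63 to 4.53 and the myeloid markers -0.07 to 0.42 in the authors' deposited table. In the same comparison in SCC1, the antigen presenting markers had 0.50 to 1.46, the fibroblast markers 2.71 to 4.39, the endothelial markers 3.34 to 6.84 and the myeloid markers 1.16 to 1.44 in the authors' deposited table.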

How the data were processed

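RNA reads were aligned with TopHat2 2.0.9 and expression compared with Cufflinks and Cuffdiff 2.2.0 on mm10, per the submitters' processing notes. For the double negative libraries those notes name mm9 as well. The sources used here do not give the variant, peak and copy number callers or their filters. The deposited variant table holds a read count per site and, as a whole percent rounded by the authors, the alternative base's share of those reads. The expression table holds log2 ratios as deposited, without levels or errors, so their depth is unknown. The peak, Smad2/3 and copy number tables were deposited as positions and whole numbers of copies.

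Variants were matched by position and alleles. Alternative reads were taken as the rounded percent times the count, with exact 95% binomial intervals that cover counting error alone (PCR copies are not independent molecules). Labels give 1 library per population and tumour, and p-values measure differences between libraries. The Fisher tests, and an exact test with the tumour as block, were tested on simulated data. The variants printed in full were those in the most libraries per gene, ties by summed depth, at most 6 a gene, and any that passed a test. Antigen presentation genes and markers were listed by hand, 1 listed gene is not reported here, and the members and lists were chosen with earlier results of these data known. Promoters and gene positions came from RefSeq on GRCm38.p6, with 5 of 5 genes matched by symbol and H2-L unmatched. Overlaps needed 1 bp. The alternatives tried were depth, rounding, duplicate reads, threshold, tumours, genes and matching. Scripts ran under Python 3.11.15 with scipy 1.17.1 for tests and intervals, pandas 2.3.3 and numpy 2.4.6 for tables, and matplotlib 3.10.9 for plots.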

Additional observations from a re-analysis of the deposited data

Results flagged for a closer look

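Of the 6 pairs of ratios of H2-K1 and H2-D1, 5 went in opposite directions in the 2 tumours. The exception was H2-D1 in double negative over proliferative cells, which the authors' deposited table puts at 0.12 (SCC1) and 1.36 (SCC2). In the authors' deposited table the log2 ratio of quiescent over proliferative cells was -0.25 in SCC1 and 1.83 in SCC2 for H2-D1, and -0.73 and 1.62 for H2-K1. For quiescent over double negative cells the authors' deposited table gave -0.41 in SCC1 and 0.44 in SCC2 for H2-D1, and -0.12 and 0.15 for H2-K1. For double negative over proliferative cells the authors' deposited table gave -0.65 in SCC1 and 1.44 in SCC2 for H2-K1. In the whole table, signs were opposite in 11.6% of genes for quiescent over proliferative cells and 53.4% for quiescent over double negative cells. For double negative over proliferative cells the share was 6.03%. Opposite signs in quiescent over double negative cells were thus common in the table. The ratios of a tumour share their libraries, so the 6 pairs are not independent. With 1 library pair per tumour the difference between tumours was not tested.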

How the results depend on the processing

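Over the alternatives, 36 values kept their direction or stayed within the spread named for them, and those that did not are given here. The 36 include class I counts of 0, which cannot fall and which a stricter threshold cannot raise. Reads divided by 2 and shares rounded closer also make a call harder, so a count that stays at 0 there shows little. With reads divided by 2, the sites passing between quiescent and proliferative cells went from 4 to 1 in SCC1 and from 4 to 0 in SCC2, those between the proliferative libraries from 64 to 25, and the class I sites among these from 1 to 0. At a threshold of 0.01 the counts were 2, 0 and 41. With reads at the end of the rounding range that brings the libraries closest, the SCC2 count was 0. The adjusted p of H2-Q4 A199G was 0.244 with reads divided by 2 (Fisher's exact test) and 0.00572 to 0.00755 otherwise. The median class I share of 93% moved by more than the SD of the tumours' medians (0.354 points) under most alternatives. It was 93.5% with at least 20 reads and 80.9% over variants. With SCC1 left out it was 92.5%, and with SCC2 left out it stayed at 93%. Leaving out a gene gave 94% without H2-Q4, 94% without H2-K1 and 89.5% without H2-D1,H2-L. Without H2-Q2 it was 92%, and without Gm8909 92%. Adding the rows named H2-D1 alone or H2-D1;H2-L, an alternative chosen after seeing the data, gave 92%. The share of class I variants in both tumours was 38.2 to 52.6% over its alternatives. In the quiescent libraries alone it was 40%, against 15.1% outside chromosomes 17 and Y. Where a construction does not show it, the cause was not tested. Libraries are paired by tumour. With the tumour as a replicate block, an exact test chosen after seeing the data, quiescent and proliferative cells differed at 3 of the 65 sites listed in all 4 libraries, against 15 with the reads of both tumours summed (no class I site in either). Reads count there as independent. The planned comparison of changed residues with aligned class I proteins was not run, since no protein sequences were used here, and leaving out a library from a test of 2 libraries gives no value.

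Depth limits the SCC2 quiescent library most, and sites with 10 to 20 reads have wide intervals. Reads shared between near-identical class I genes could not be separated, and the reads themselves were not analysed here.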

Other observations

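Other class I genes of the same chromosome also had listed variants, 17 in 35 rows, with shares of 11 to 100% and a median of 59%. In H2-Q7,H2-Q9 the neighbouring changes K197N and E198A were at 89% of 28 reads in the SCC1 proliferative and 100% of 15 in the SCC1 quiescent library, and E198A was at 60% of 10 reads in the SCC2 quiescent library. They name the same residues, lysine to asparagine and glutamate to alanine, as the neighbouring K201N and E202A of Gm8909. A proline to arginine change was listed in H2-M2 as P221R at 100% of 26, 20 and 32 reads in 3 libraries, in Gm11127 as P215R at 100% of 11 reads and in H2-Q7,H2-Q9 as P214R at 80% of 10 reads. H2-Q10 I119F was at 83% of 95, 92% of 48 and 77% of 62 reads in the SCC1 proliferative, SCC1 quiescent and SCC2 proliferative libraries, and its other 2 variants had shares of 27 to 94%. H2-Q1 N277K was at 75 to 100% of 12 to 31 reads in the same 3 libraries.

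The deepest of these sites were in H2-T23, which encodes Qa-1, a nonclassical ligand of inhibitory receptors on NK cells. Its I317V was at 32% of 171, 20% of 182, 14% of 259 and 12% of 93 reads in the SCC1 proliferative, SCC1 quiescent, SCC2 proliferative and SCC2 quiescent libraries, and its 3 variants together ran from 11 to 32%. H2-D1 also had sites outside the 7 described. A362V, named for H2-D1 alone, was at 47 to 59% of 19 to 33 reads, and A24E, named for H2-D1;H2-L, was at 27 to 38% of 32 to 69 reads, each in 3 libraries. In H2-Q6,H2-Q8, 3 variants were at 42 to 58% of 12 reads in the SCC1 proliferative library. These variants were noticed in the data and no test was made of them.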
